A study of Mus musculus with 12 samples.

Results

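The 10 genes described here, Fn1, Tnc, Postn, Sparc, Thbs1, Thbs2, Ctgf, Fbn1, Fbln2 and Eln, encode extracellular matrix proteins of fibroblasts that are not collagens. They were chosen by symbol from the 24098 genes of an mRNA-Seq table, with earlier results of these data known. All 10 were found. mRNA was sequenced in 12 libraries, 1 for each of 12 conditions of mouse cells, so no value below has a replicate and no difference was tested. The D0 library came from uninfected mouse embryonic fibroblasts (MEFs), labelled wild type, which were derived from mid-gestation embryos and carry a GFP reporter at Oct4. D3, D6, D9, D12 and D16 are MEFs on days 3, 6, 9, 12 and 16 after infection with pMXs retroviruses that carry Oct4, Sox2, Klf4 and c-Myc (OSKM). D3 was not sorted. On days 6 and 9 the cells were separated with an antibody to Thy-1, a fibroblast surface protein, into D6T- and D9T- (Thy-1-) and D6T+ and D9T+ (Thy-1+). On days 12 and 16 they were separated on SSEA-1, a surface carbohydrate of mouse pluripotent cells, into D12S+ and D16S+ and into D12S- and D16S-. The study treats Thy-1- and SSEA-1+ cells as the successful route. The end points were fully reprogrammed iPSCs made from MEFs in the same way and ESD3 embryonic stem cells (mESCs), labelled wild type. The strain and the number of cultures behind a library are not given in the sources used here. MEFs were grown in a medium with fetal bovine serum. By the sample labels, reprogramming cells, iPSCs and mESCs were grown in a serum replacement medium with LIF, ascorbic acid, bFGF and the GSK3 inhibitor CHIR99021. The study's methods also name other media for these cells, one of them with fetal bovine serum. By the labels, D0 differed from the reprogramming cells and iPSCs in medium as well as in OSKM, and these cannot be told apart.

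Fibroblasts build and hold their surroundings with secreted proteins. Fibronectin (Fn1) forms fibrils that integrins grip, and much of the remaining matrix is laid down on them. Matricellular proteins such as tenascin-C, periostin, SPARC, the thrombospondins and CTGF sit in the matrix but act mainly on cell adhesion, spreading and growth factor activity. Fibrillin-1 forms microfibrils, on which elastin is deposited as elastic fibres, and fibulin-2 binds both. Pluripotent cells grow as compact epithelial colonies and rest on laminin-rich basement membrane. A fibroblast that becomes such a cell passes through a mesenchymal-to-epithelial transition.

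The values are FPKM, fragments counted per length of transcript and per sequencing depth, a level per transcript length that can be compared between genes. Differences are in log2(FPKM + 1), where 1 equals 2-fold, and are smaller than the true change for genes at low FPKM. The words rose and fell are used only for differences of at least 2-fold. For every comparison the share of all 14178 genes with at least 1 FPKM in at least 1 library that passed the same fold is given as the background where the fold is first counted. All 10 genes passed that filter. Of the 14178 genes, 11172 reached 1 FPKM in D0, all 10 matrix genes among them. The rest could not count as at least 2-fold below D0, which lowers the background of those comparisons. The absolute depth of the libraries is unknown. Depth relative to D0 was estimated as the most frequent ratio of D0 FPKM to library FPKM over genes low in both libraries. The estimate was 0.966 in D9T+ to 1.56 in D6T-. The interval that cuffdiff attached to each FPKM was wide, with a median half-width of about 100% of the FPKM in every library (99.6% to 100.4%), and holds no measured variation between cultures. The fibroblast label was checked with 10 markers that are not among the 10 matrix genes (Thy1, Pdgfra, Pdgfrb and others). Their summed level was 3598 FPKM in D0, with 9 of 10 at 1 FPKM or more, and 25.4 FPKM in iPSCs. S100a4 alone was at 2253 FPKM in D0 and 10.7 FPKM in iPSCs. In D0, 10 pluripotent markers summed to 2.23 FPKM (1 at 1 FPKM or more) and 10 epithelial markers to 65.6 FPKM (3 at 1 FPKM or more). The 8 leukocyte markers summed to 26.0 FPKM, with 5 at 1 FPKM or more. Among them Lyz2 was at 9.47, Cd68 at 9.05 and Ptprc at 0.0273 FPKM. The 8 endothelial markers summed to 13.0 FPKM, of which Cdh5 held 11.8 FPKM. The 8 cartilage and bone markers summed to 15.5 FPKM (2 at 1 FPKM or more). Smooth muscle and myofibroblast markers, which fibroblasts in culture also express, summed to 1882 FPKM. In iPSCs all 10 pluripotent and all 10 epithelial markers were at least 2-fold higher than in D0, as were 18.7% of all genes. In bulk cells, fewer cells of a kind and less RNA per cell cannot be told apart.

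To show what the start regions of these genes look like, RefSeq promoter windows (250 bases before to 50 bases after a start site, tabulated on GRCm38.p6) were available for 6 of the 10 genes. No window was used for Fn1, Thbs1, Ctgf and Eln. Each window matched the mm9 genome (NCBIM37), the build of the expression table, exactly and once, and mm9 positions are given. Shown are the genes with the lowest shares of their D0 level in D16S+, Tnc and Postn (each the second of 2 tabulated start sites), and Sparc, which stayed above 100 FPKM in every library. Capitals mark 4 motifs, searched on both strands. The TATA box was searched as TATAAA, and the GC box, bound by Sp1, as GGGCGG. Sites of AP-1 factors were searched as TGANTCA and those of TEAD factors as GGAATG.
Tnc, chr4:63707921-63708220, minus strand: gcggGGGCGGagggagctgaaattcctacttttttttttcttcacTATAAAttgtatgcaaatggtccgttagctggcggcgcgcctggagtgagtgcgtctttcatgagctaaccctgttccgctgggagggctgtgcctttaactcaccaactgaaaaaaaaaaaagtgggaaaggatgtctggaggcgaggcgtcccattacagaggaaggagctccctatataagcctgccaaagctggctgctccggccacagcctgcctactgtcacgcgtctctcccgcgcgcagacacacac
Postn, chr3:54164779-54165078, plus strand: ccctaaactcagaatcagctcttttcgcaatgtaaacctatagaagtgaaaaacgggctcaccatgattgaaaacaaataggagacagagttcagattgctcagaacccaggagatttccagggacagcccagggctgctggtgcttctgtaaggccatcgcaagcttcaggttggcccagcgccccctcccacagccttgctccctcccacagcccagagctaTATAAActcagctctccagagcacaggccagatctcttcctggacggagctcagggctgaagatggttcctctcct
Sparc, chr11:55233533-55233832, minus strand: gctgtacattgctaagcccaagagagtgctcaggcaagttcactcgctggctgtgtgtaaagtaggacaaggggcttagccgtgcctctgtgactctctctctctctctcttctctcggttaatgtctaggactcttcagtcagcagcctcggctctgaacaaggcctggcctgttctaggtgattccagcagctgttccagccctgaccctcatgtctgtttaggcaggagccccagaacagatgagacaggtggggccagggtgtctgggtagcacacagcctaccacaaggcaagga
TATAAA occurred 26 bases before the Postn start site, and 205 bases before the Tnc start site together with a GC box at its 5′ end. The Sparc window held neither of these, nor an AP-1 or TEAD match. Only the exact letters TATAAA were searched, so the variant tatataa, closer to the Tnc start site, was not counted or capitalised. Over all 32851 windows, 13.6% held TATAAA, 35.7% GGGCGG, 7.81% TGANTCA and 14.7% GGAATG. The 6 genes differed in base composition, from 4 CpG in the windows of Sparc and Thbs2 and the first of Postn to 16 in the Tnc window shown. The Tnc window lies upstream of the 5′ end of the GENCODE M1 gene model whose coordinates are given below. These matches describe the sequence only.

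Compared with D0, 9 of the 10 genes had fallen by at least 2-fold in iPSCs, against a background of 21.6% of all genes, and 7 were at least 4-fold lower (background 9.2%). Ctgf was the exception and rose (background 18.7%). In mESCs all 10 genes, Ctgf included, were at least 2-fold below D0 (background 21.9%). From D0 to iPSCs the median difference of the 10 genes was -5.35, beside 0.03 over all genes. Together they held 1.18% of the total FPKM in D0, 0.608% in D3, 0.102% in D16S+ and 0.126% in iPSCs. In D3, 5 genes (Tnc, Fn1, Postn, Thbs2 and Eln) were lower than in D0 and Ctgf was higher (background 8.67% lower and 5.76% higher). Between D3 and D6T- 7 genes were at least 2-fold lower (background 6.62%). By D16S+ 9 genes were lower than in D0 (background 20.9%), with a median of -4.65, and in D16S- 9 were lower as well (background 11.4%), with a median of -2.02. The D16S- count was 7 after scaling to equal total FPKM (background 7.58% with that scaling). At 4-fold it was 5 (background 2.95%), and in D3 it was 3 (background 2.47%). Within the SSEA-1+ route 4 genes (Tnc, Thbs2, Fbn1 and Fbln2) were lower and Ctgf higher in D16S+ than in D12S+ (background 5.32% lower and 3.59% higher), and only Thbs2 and Fbn1 were lower in iPSCs than in D16S+ (background 7.77%). In the other fractions Thbs1, Ctgf and Eln were higher in D9T+ than in D6T+ (background 4.92%), and Thbs1 and Ctgf were higher in D16S- than in D12S- (background 2.03%). The comparisons with D0 share that library. The intervals of D0 and iPSCs overlapped for 8 of the 10 genes and lay apart for Tnc and Postn. The share of all genes with overlapping intervals was not counted for this or any other comparison, so interval counts have no background.

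**Figure D1:**
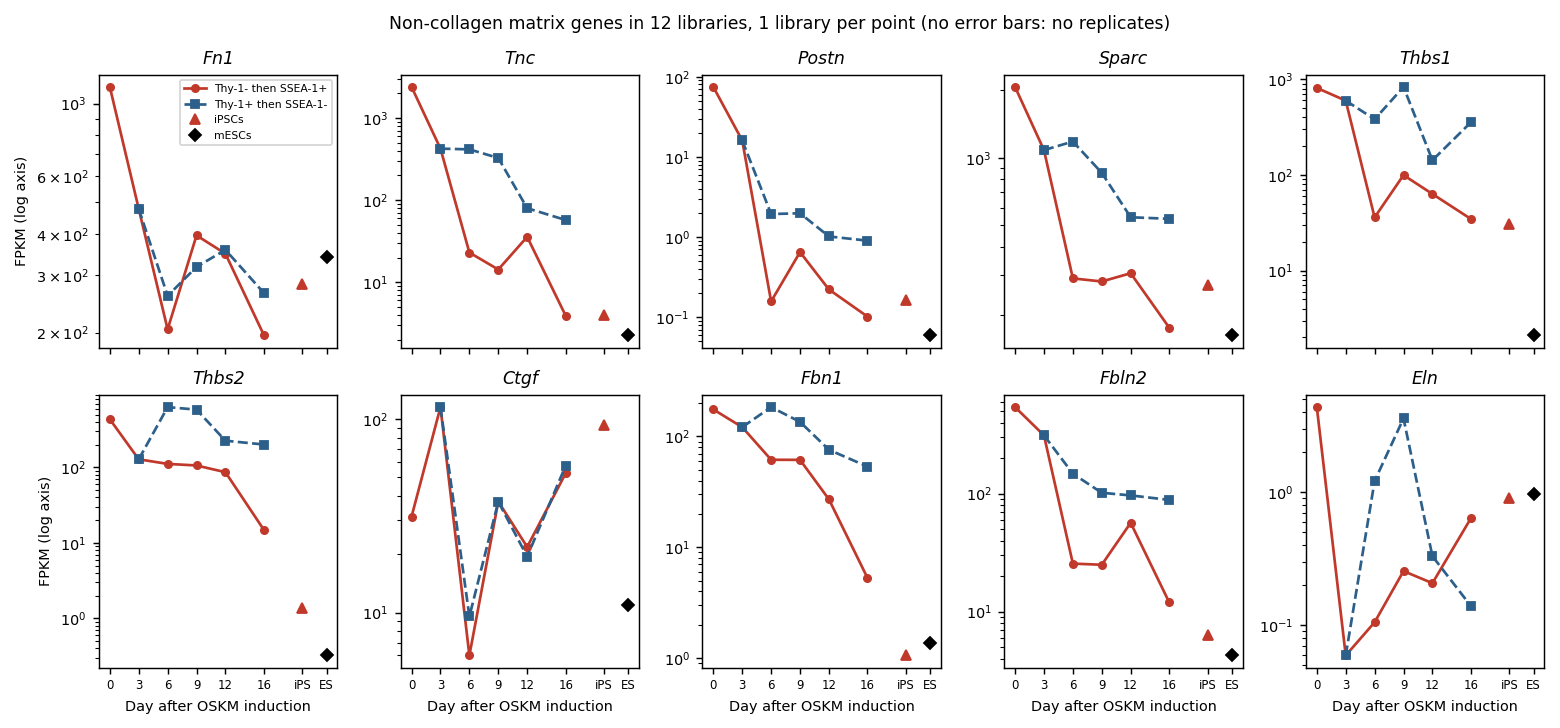
FPKM (log axis, a separate scale per gene) of the 10 matrix genes by day after OSKM induction; red circles join D0, D3 and the Thy-1- then SSEA-1+ fractions, blue squares join D3 and the Thy-1+ then SSEA-1- fractions, and separate marks show iPSCs and mESCs, each point being 1 library without error bars. Tnc goes from 2399 FPKM at the start (D0) to 3.90 FPKM by D16S+, Fn1 stays between 196 and 1124 FPKM, and the red and blue lines of Ctgf run close together.

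Fn1 (chromosome 1, 71632094 to 71699774, minus strand) encodes fibronectin. It was at 1124 FPKM in D0, 477 in D3, 205 in D6T-, 259 in D6T+, 396 in D9T-, 317 in D9T+, 348 in D12S+, 358 in D12S-, 196 in D16S+, 264 in D16S-, 281 in iPSCs and 340 in mESCs. D0 was the highest library and D3 the next, and the deposited intervals overlapped in all 66 pairs of libraries. Fn1 fell by 1.23 on the log2 scale from D0 to D3 and was 2.00 lower in iPSCs. Even its lowest level, in D16S+, was above that of 97.6% of the genes kept. mESCs, which never were fibroblasts, held 30.2% of the D0 level. On the day 9 sort the order of the fractions was turned, with 0.32 more in D9T- than in D9T+, which is under 2-fold.

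Tnc (chromosome 4, 63620819 to 63681760, minus strand) encodes tenascin-C, a hexameric protein that loosens the hold of cells on fibronectin. It was at 2399 FPKM in D0, 425 in D3, 23.0 in D6T-, 416 in D6T+, 14.3 in D9T-, 327 in D9T+, 35.7 in D12S+, 79.8 in D12S-, 3.90 in D16S+, 57.3 in D16S-, 3.95 in iPSCs and 2.26 in mESCs. D0 stood alone at the top, and D3, D6T+ and D9T+ followed within 327 to 425 FPKM. Tnc fell by 8.92 from D0 to iPSCs, the second largest fall among the 14178 genes. The deposited interval of D0, 2392 to 2407 FPKM, was very narrow beside that of D3 (0 to 986 FPKM), so the separation of D0 from other libraries by intervals rests on that one interval. D16S- kept 2.39% of the D0 level and D16S+ 0.163%. A long non-coding gene on the opposite strand, 8030451A03Rik, overlaps Tnc, as the protein-coding Apol7d does Fn1 and Gm9913 does Fbn1. Since the strand setting used in counting was not stated, reads of such partners cannot be told apart.

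Postn (chromosome 3, 54165031 to 54194961, plus strand) encodes periostin, which helps collagen fibrils to be cross-linked. It was at 74.6 FPKM in D0, 16.1 in D3, 0.157 in D6T-, 1.94 in D6T+, 0.649 in D9T-, 1.98 in D9T+, 0.222 in D12S+, 1.02 in D12S-, 0.102 in D16S+, 0.902 in D16S-, 0.164 in iPSCs and 0.0596 in mESCs. Only D0 and D3 were above 2 FPKM. Postn was low in both fractions of day 6: from D0 to D6T+ it fell by 4.68, the third largest fall of that comparison. Each Thy-1- or SSEA-1+ fraction was below its counterpart, and all 8 fractions were below 2 FPKM. At such levels the difference depends on the pseudocount: on days 6, 9, 12 and 16 it was -1.34, -0.85, -0.72 and -0.79 with 1 FPKM added, and -2.98, -1.47, -1.80 and -2.31 with 0.1 FPKM added.

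Sparc (chromosome 11, 55208002 to 55233582, minus strand) encodes SPARC, a collagen-binding glycoprotein also known as osteonectin. It was at 2067 FPKM in D0, 1081 in D3, 290 in D6T-, 1181 in D6T+, 281 in D9T-, 856 in D9T+, 306 in D12S+, 543 in D12S-, 175 in D16S+, 534 in D16S-, 270 in iPSCs and 162 in mESCs. The 4 Thy-1+ or SSEA-1- fractions, at 534 to 1181 FPKM, lay above the 4 matching fractions, at 175 to 306 FPKM. Sparc fell by 2.93 from D0 to iPSCs. From D3 to D6T- it fell by 1.90. It remained abundant in the pluripotent lines, above 98.1% of the kept genes in iPSCs and 96.3% in mESCs. Since Fn1 and Sparc are also made by extraembryonic endoderm, a lineage that can arise in stem cell cultures, its markers were examined. In iPSCs and mESCs, Gata4 was at 1.77 and 11.1 FPKM, Gata6 at 2.59 and 7.82 FPKM and Sox17 at 0.880 and 1.97 FPKM. Of 10 such markers 5 reached 1 FPKM in iPSCs, 7 in mESCs and 5 in D0, with summed levels of 113, 105 and 387 FPKM and a range of 55.7 to 462 FPKM over all libraries. Most of each sum was Col4a1, a collagen that fibroblasts make too, at 102, 70.2 and 371 FPKM in iPSCs, mESCs and D0. Their part in the levels of Fn1 and Sparc was not tested.

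Thbs1 and Thbs2 encode thrombospondin-1, which can activate latent TGF-beta, and the related thrombospondin-2, and both restrain the growth of blood vessels. Thbs1 (chromosome 2, 117937612 to 117952869, plus strand) was at 812 FPKM in D0, 597 in D3, 36.0 in D6T-, 382 in D6T+, 99.5 in D9T-, 831 in D9T+, 63.2 in D12S+, 142 in D12S-, 34.6 in D16S+, 355 in D16S-, 30.8 in iPSCs and 2.11 in mESCs. D9T+ and D0 were level at the top. Thbs1 was within 2-fold of D0 in D3 (-0.44), fell by 4.02 to D6T-, and rose by 1.31 between D12S- and D16S-. Thbs2 (chromosome 17, 14802507 to 14831269, minus strand) was at 434 FPKM in D0, 128 in D3, 111 in D6T-, 628 in D6T+, 106 in D9T-, 582 in D9T+, 225 in D12S-, 86.3 in D12S+, 201 in D16S-, 14.8 in D16S+, 1.36 in iPSCs and 0.323 in mESCs. The Thy-1+ fractions stood above D0, though by under 2-fold (0.53 for D6T+). The 2 paralogs differed in when they fell: Thbs2 was 1.75 lower in D3 than in D0 but 0.20 lower in D6T- than in D3, and its later falls were 2.47 between D12S+ and D16S+ and 2.74 between D16S+ and iPSCs. In the second of these steps Thbs1 moved by -0.17.

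Ctgf (chromosome 10, 24315248 to 24318489, plus strand) encodes connective tissue growth factor, a matricellular protein induced by TGF-beta and by the YAP and TAZ coactivators with TEAD factors. It was at 31.3 FPKM in D0, 115 in D3, 6.01 in D6T-, 9.56 in D6T+, 37.5 in D9T-, 37.4 in D9T+, 21.8 in D12S+, 19.5 in D12S-, 52.5 in D16S+, 57.5 in D16S-, 92.7 in iPSCs and 10.9 in mESCs. The highest libraries were D3 and iPSCs and the lowest were both fractions of day 6. Ctgf rose by 1.85 from D0 to D3, fell by 4.05 from D3 to D6T- and was 1.53 higher in iPSCs than in D0. The sorted fractions never differed by 2-fold: the differences were -0.59, 0.00, 0.16 and -0.13 on days 6, 9, 12 and 16, and that of day 9 became -0.03 when scaled by the median of ratios. All 66 pairs of deposited intervals overlapped. iPSCs held 296% and mESCs 34.9% of the D0 level. Gm15270, a long non-coding gene on the opposite strand, overlaps Ctgf.

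Fbn1, Fbln2 and Eln belong to the elastic fibre. Fbn1 (chromosome 2, 125126330 to 125333729, minus strand), for fibrillin-1, was at 175 FPKM in D0, 121 in D3, 61.6 in D6T-, 184 in D6T+, 61.5 in D9T-, 135 in D9T+, 27.1 in D12S+, 75.8 in D12S-, 5.30 in D16S+, 53.5 in D16S-, 1.06 in iPSCs and 1.37 in mESCs. D6T+ and D0 were level, with a difference of 0.07, and the route fractions stepped down to the pluripotent lines. From D0 to iPSCs it fell by 6.42. Fbln2 (chromosome 6, 91162449 to 91222534, plus strand), for fibulin-2, was at 541 FPKM in D0, 312 in D3, 25.5 in D6T-, 148 in D6T+, 25.0 in D9T-, 102 in D9T+, 56.6 in D12S+, 96.6 in D12S-, 12.0 in D16S+, 88.5 in D16S-, 6.37 in iPSCs and 4.25 in mESCs. Fbln2 fell in both fractions by day 6, more in D6T-, and by 6.20 in iPSCs. Eln (chromosome 5, 135179651 to 135223111, minus strand), for elastin itself, was low throughout: 4.35 FPKM in D0, 0.0591 in D3, 1.21 in D6T+, 3.58 in D9T+, and between 0.105 and 0.966 FPKM in the other 8 libraries. Of all genes kept, only 40.8% lay at or below Eln in D0, while Fbn1 lay above 95.7% and Fbln2 above 98.7%.

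**Figure D2:**
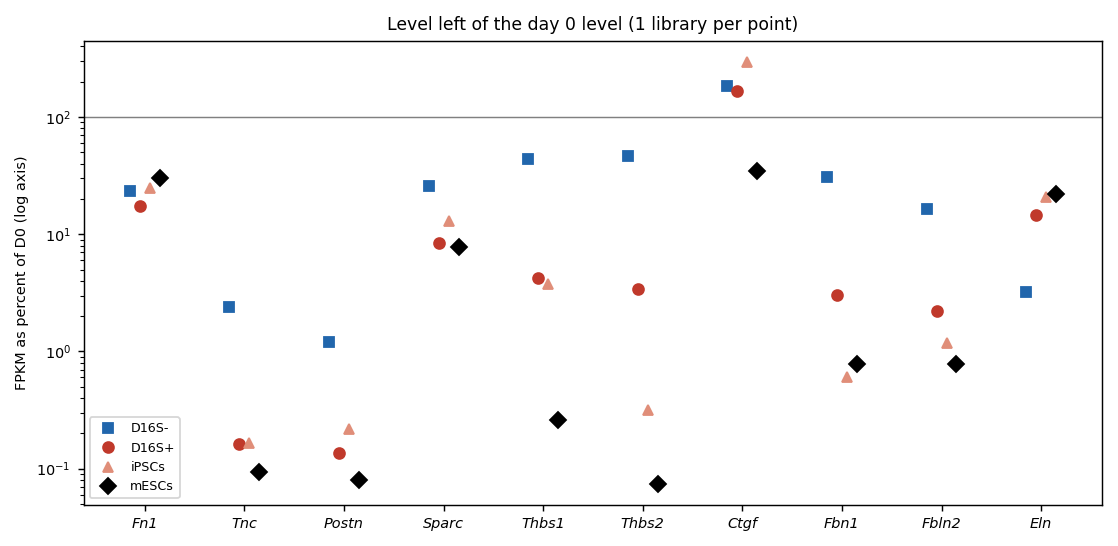
FPKM of each gene as a percentage of its D0 level (log axis) in D16S- (blue squares), D16S+ (red circles), iPSCs (triangles) and mESCs (black diamonds), 1 library per point, with a line at 100%. Only Ctgf lies above the line, at 168% in D16S+, 183% in D16S- and 296% in iPSCs, and Tnc and Postn lie below 0.3% in D16S+ and iPSCs.

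The sorted fractions of each day were then compared to ask how the genes separate the routes. In the Thy-1- fraction 7 of the 10 genes were at least 2-fold lower on day 6 (background 9.47%) and 7 on day 9 (background 6.45%). In the SSEA-1+ fraction 4 were lower on day 12 (background 3.03%) and 6 on day 16 (background 15.2%). With 1 FPKM added, 0 of the 10 genes were at least 2-fold higher in Thy-1- or SSEA-1+ cells on any day (backgrounds 2.93%, 1.81%, 4.79% and 11.8%), while with 0.1 FPKM added Eln was 1.62 higher in D16S+ than in D16S-. Tnc, Thbs1, Thbs2 and Fbn1 were at least 2-fold lower on all 4 days, as were 1.07% of all genes. With Postn, Sparc and Fbln2, 7 genes were lower by any amount on all 4 days (24.8% of all genes). At 4-fold the counts were 5 on day 6 (background 2.46%) and 3 on day 9 (background 1.63%). They were 0 on day 12 (background 0.0846%) and 5 on day 16 (background 3.91%). The median difference by day was -1.79, -1.74, -0.79 and -2.20 (days 6, 9, 12 and 16). The fibroblast markers, which leave out the 10 genes, moved with these differences: their summed level was 498 FPKM in D6T- and 2926 in D6T+, 296 in D9T- and 1934 in D9T+, 318 in D12S+ and 735 in D12S-, and 55.2 in D16S+ and 606 in D16S-. S100a4 made up much of each sum on all 4 days. It was at 399 FPKM in D6T-, 1903 in D6T+, 237 in D9T- and 1021 in D9T+. On the later days it was at 244 FPKM in D12S+, 540 in D12S-, 41.0 in D16S+ and 442 in D16S-. Of 9 fibroblast markers kept, 7 were at least 2-fold lower in D6T- than in D6T+ and 1, Meox2, was higher (7.34 against 2.51 FPKM). Thy1, the sorted marker itself, is one of them, and their part in the differences of the 10 genes was not tested. The deposited intervals of the 2 fractions overlapped for all 10 genes on each day.

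Within the set the size of the difference varied. Tnc differed by -4.12 on day 6 and -4.42 on day 9, the sixth and the fourth lowest of 14178 genes. On day 12, the first day sorted on SSEA-1, its difference was -1.14. Tnc was higher in D12S+ (35.7 FPKM) than in D9T- (14.3 FPKM) and lower in D12S- (79.8 FPKM) than in D9T+ (327 FPKM). The marker and the day changed together between days 9 and 12 and cannot be told apart. On day 16 the largest differences were those of Thbs2 (-3.67), Tnc (-3.57), Thbs1 (-3.32), Fbn1 (-3.11) and Fbln2 (-2.79). Fn1 and Ctgf stayed within 2-fold on all 4 days. Eln was 0.52 higher in D16S+, at 0.636 against 0.139 FPKM.

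**Figure D3:**
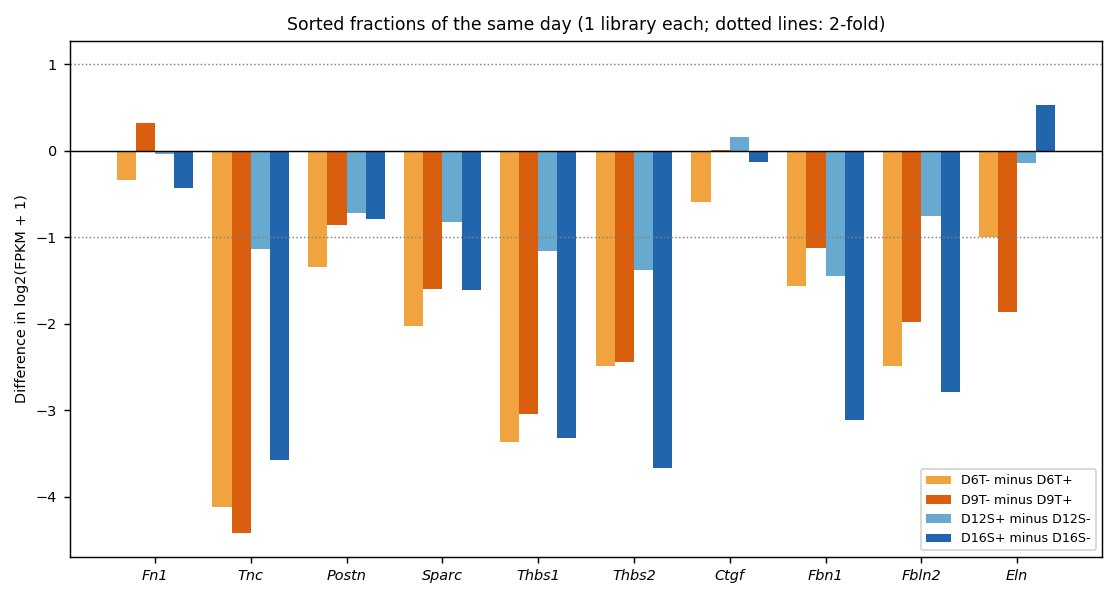
Difference in log2(FPKM + 1) between the sorted fractions of days 6, 9, 12 and 16 (Thy-1- minus Thy-1+, then SSEA-1+ minus SSEA-1-) for each gene, as bars from 0 without error bars since each fraction is 1 library; dotted lines mark 2-fold. Tnc has the longest bars on days 6 and 9 (-4.12 and -4.42), and Fn1 and Ctgf stay between the dotted lines.

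D6T+ cells carried Thy-1 on day 6, and their matrix genes were compared with those of D0. In the unsorted D3 library between them Thy1 was at 123 FPKM, against 669 in D0 and 477 in D6T+, and Thbs2 was at 128 FPKM. Thbs2 (628 against 434 FPKM), Fbn1 (184 against 175 FPKM) and Sparc (1181 against 2067 FPKM) were within 2-fold of D0. The other 7 genes were lower (background 4.39%), 3 of them by at least 4-fold (background 0.755%), led by Postn (-4.68), Tnc (-2.52) and Fn1 (-2.11). In D6T+ smooth muscle and myofibroblast markers summed to 434 FPKM against 1882 in D0, with Acta2 at 166 against 675 FPKM and Tagln at 208 against 974 FPKM. Their part in these differences was not tested.

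Between iPSCs and mESCs 8 of the 10 genes were within 2-fold, and 0 were at least 2-fold lower in iPSCs (background 7.41%). Thbs1 (30.8 against 2.11 FPKM, a difference of 3.35) and Ctgf (92.7 against 10.9 FPKM, 2.97) were higher in iPSCs (background 6.79%), and both were also at least 4-fold higher (background 1.23%). The intervals overlapped, as for the other 8 genes. With 0.1 FPKM added in place of 1, 3 genes were at least 2-fold higher in iPSCs (background 11.7% with that pseudocount). The third was Thbs2 (1.36 against 0.323 FPKM), with a difference of 1.79. Smooth muscle and myofibroblast markers differed in the same direction, with 4 of 7 at least 2-fold higher in iPSCs, a summed level of 512 against 82.1 FPKM and Tagln at 280 against 34.9 FPKM. Their part in the difference of Thbs1 and Ctgf was not tested.

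The likeness of the profiles was described by Pearson's r over the 12 libraries. The libraries belong to 1 time course and are not independent, and r is given as a description. The 45 pairs of genes had a median r of 0.60, the highest being 0.98 for Tnc and Sparc and the lowest -0.13 for Ctgf and Fbn1. Without Ctgf, the median of the 36 pairs was 0.79 and the lowest 0.17. With the mean of the other 9 standardised profiles, r was 0.96 for Tnc, 0.95 for Sparc, 0.93 for Fbln2, 0.90 for Thbs1, 0.85 for Postn, 0.78 for Fbn1, 0.73 for Thbs2, 0.63 for Fn1, 0.40 for Eln and 0.10 for Ctgf. Thbs2 and Fbn1 were closest to each other (0.97). Among 8795 other genes with at least 10 FPKM in some library, the 10 closest to the mean profile were Col12a1 (r = 0.99), Derl1 (0.98), Plau, Srpx2, Orai2, Qsox1, Col1a1, Bgn, Tmem127 and Rassf1 (0.96 to 0.97). Col12a1, for a fibril-associated collagen, went from 113 FPKM (D0) to 0.823 FPKM (iPSCs), and Bgn, for the proteoglycan biglycan, from 2983 to 8.78 FPKM. Derl1, a membrane protein of endoplasmic reticulum quality control, spanned only 48.0 to 17.4 FPKM. This list depends on the measure: 2 of the 10 were among the first 10 by Spearman's rho, and 3 without iPSCs and mESCs.

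For single genes the closest profiles differed. Tnc was closest to Bgn (1.00) and Col1a1 (0.99), Sparc was close to Bgn (0.99), and Postn to Tfpi2 (0.98) and Mmp10 (0.97). Thbs2 was closest to Tgfbr2 (0.99), a TGF-beta receptor, and Prrx1 (0.99), a mesenchymal transcription factor. Thbs1 was closest to Inhba (0.97) and Ier5 (0.97), Fbln2 to Msn and Timp1 (0.98 each), and Fbn1 to Rnase4 and Apbb1ip (0.99 each). The highest values for Fn1 were 0.88 (Fis1) and 0.87 (Sec11c), and Eln had Cpxm1 (0.91) and Bcl10 (0.90). Ctgf was closest to Amotl2 (0.87), a known target of YAP and TEAD, and Csrp1 (0.84). Amotl2 was at 26.9 FPKM in D0, 65.1 in D3, 84.0 in iPSCs and 21.2 in mESCs. Unlike those of Ctgf, its fractions lay clearly apart on day 6, at 13.1 FPKM in D6T- and 31.2 in D6T+. On day 16 Amotl2 was at 47.9 FPKM in D16S+ and 95.7 in D16S-, its highest library.

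Other genes of the matrix were followed in lists. Of 16 further elastic fibre genes kept, 15 were lower by 2-fold or more in iPSCs, relative to D0, and 1 was higher, with a median of -4.59 (background for this and the next lists 21.6% lower and 18.7% higher, median 0.03). Mfap2, a microfibril protein, went from 180 to 0.771 FPKM and Loxl1, a cross-linking enzyme of elastin, from 203 to 1.35 FPKM. Fbln1, with the smallest fall, went from 64.6 to 20.9 FPKM, and Ltbp4, which binds latent TGF-beta, from 17.1 to 56.7 FPKM. Fbn2, the paralog of Fbn1, was higher in D6T- (54.1 FPKM) than in D0 (7.81 FPKM), while in D16S+ it was at 0.318 FPKM. The same libraries held Fbn1 at 61.6, 175 and 5.30 FPKM.

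Of 15 further matricellular genes, 10 were lower in iPSCs, 2 were higher and 3 within 2-fold (median -2.54, same background). The largest falls were those of Srpx2 (18.4 to 0.0769 FPKM) and Ccdc80 (24.7 to 0.550 FPKM), and the rises those of Smoc1 (0.318 to 12.9 FPKM) and Spock2 (0.170 to 1.71 FPKM). Cyr61, a relative of Ctgf, was at 327 FPKM in D0, 263 in D3, 105 in D6T-, 901 in D9T+, 196 in iPSCs and 18.3 in mESCs. Of the other relatives in the list, Nov went from 7.04 FPKM in D0 to 0.151 in iPSCs and Wisp1 from 12.8 to 0.463. Wisp2 was at 0.650 FPKM in D0 and 0.129 in iPSCs. The fractions of day 16, D16S+ and D16S-, held Cyr61 at 97.1 and 390 FPKM and Ctgf at 52.5 and 57.5 FPKM.

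A further list held fibronectin partners together with receptors of fibronectin and of other matrix molecules. Of its 12 genes kept, 9 were lower in iPSCs and 1 higher (median -1.50, background 21.6% and 18.7%). Itga5 and Itgb1, which form the main fibronectin receptor, went from 245 to 67.5 FPKM and from 210 to 33.2 FPKM. Cd44, a hyaluronan receptor, went from 86.0 to 1.70 FPKM and Cd47, a receptor of thrombospondin-1, from 15.1 to 0.761 FPKM. Tgm2, a transglutaminase that binds fibronectin, rose from 10.6 to 67.6 FPKM, and Sdc4 was at 57.6 and 94.7 FPKM. Of 8 proteoglycan and hyaluronan genes, 6 were lower and 0 higher, with Bgn and Dcn (117 to 0.128 FPKM) the largest falls (background 21.6% lower and 18.7% higher). Prelp was near 0 in both, but during reprogramming it was at 60.0 FPKM in D6T+, 154 in D9T+, 142 in D12S- and 138 in D16S-, and at 15.3, 53.7, 54.4 and 13.5 FPKM in the matching Thy-1- and SSEA-1+ fractions.

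Of 18 basement membrane genes, 8 were lower and 9 higher in iPSCs (median 0.39, background 21.6% and 18.7%). Lama4, a laminin chain of mesenchyme and vessels, went from 27.8 to 0.163 FPKM and Lamb1 from 328 to 32.7 FPKM. Lama5, a chain of epithelial laminins, went from 4.75 to 112 FPKM. In D16S- 9 of the 18 were higher than in D0 and 5 lower (background 12.8% higher and 11.4% lower), with Lama5 at 134 FPKM. A further list of 15 genes tied to serum, TEAD factors or SRF held both responding genes and regulators themselves, such as Yap1, Tead4 and Srf. Of these 15, 4 were lower and 4 higher in iPSCs than in D0, near the background of 21.6% and 18.7%. Compared with mESCs, 9 were at least 2-fold higher in iPSCs (background 6.79%), so the counts are not those of targets alone. Ankrd1, a target of YAP and TEAD, was at 26.4 FPKM in D0, 66.4 in D3, 2.26 in D6T- and 5.30 in iPSCs. Axl (226 to 7.15 FPKM) and Egr1 (61.9 to 7.55 FPKM) had the largest falls, and Ajuba (18.7 to 90.5 FPKM) and Tead4 (4.17 to 20.4 FPKM) the largest rises.

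**Figure D4:**
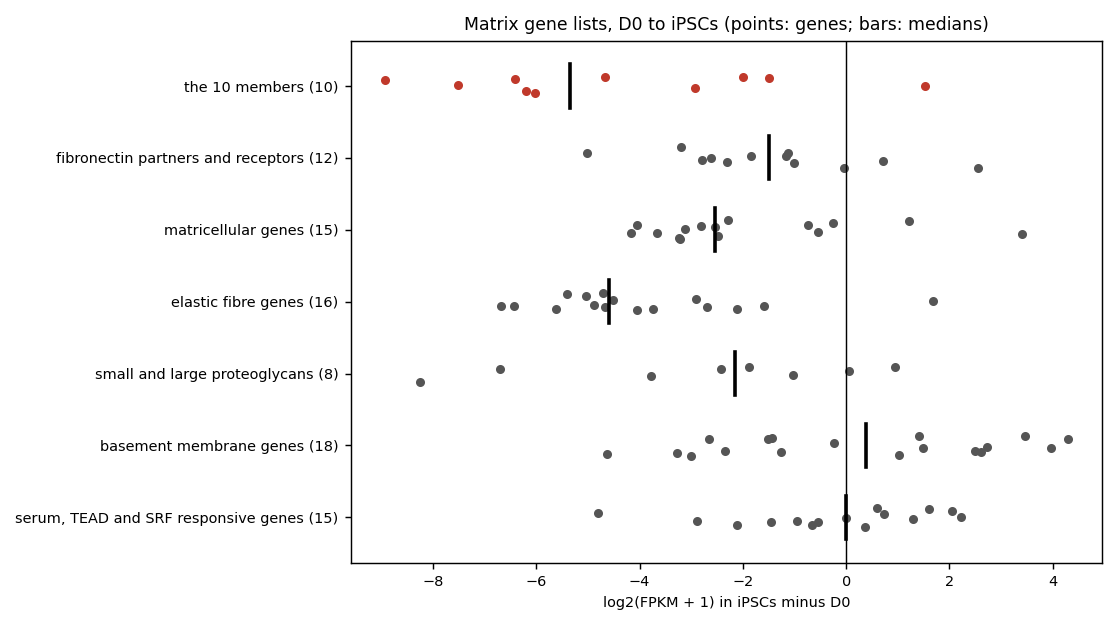
Difference in log2(FPKM + 1) between iPSCs and D0 for the 10 matrix genes (red) and the genes kept of 6 further lists (grey, number in parentheses); each point is 1 gene and each black bar a median, with vertical scatter added for display. The median is -5.35 for the 10 genes, -4.59 for elastic fibre genes and 0.39 for basement membrane genes, which lie on both sides of 0.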

How the data were processed

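mRNA was measured in 12 libraries, 1 per condition, prepared with a TruSeq kit, which the labels call stranded and the methods do not. The authors aligned reads to mm9 with STAR, removed reads with more than 2 mismatches or more than 1 locus, and deposited FPKM per gene with cuffdiff intervals. Tool versions, annotation, library scaling and the strand setting are not given in the sources used here. Deposited FPKM depend on the mix of genes in a library, since 1 abundant gene lowers the share left for others. Columns were assigned by day and marker sign, where "pos" and "neg" were read as the sign of Thy-1 (days 6 and 9) or SSEA-1 (days 12 and 16). A further 12 columns of status words were not used.

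FPKM were read with pandas 2.3.3 and numpy 2.4.6 in Python 3.11.15, and plots drawn with matplotlib 3.10.9. Genes with at least 1 FPKM in at least 1 library were kept (14178 of 24098), and log2(FPKM + 1) was compared between libraries, with at least 2-fold counted as a difference. With 1 library per condition no test was made. The genes named were the 10 matrix genes, the 10 genes closest to their mean profile and the 2 closest to each among genes with at least 10 FPKM in some library, the 2 largest rises and falls from D0 to iPSCs in each of 6 matrix lists, and list genes set beside a matrix gene of like role. Some genes that this rule names are not reported here. The Gata4, Gata6, Sox17, Acta2, Tagln, Lyz2, Cd68, Ptprc, Cdh5, Col4a1, S100a4, Meox2 and Thy1 values come from the 8 marker lists. The 10 genes and all lists were chosen with earlier results of these data known. Gene positions come from GENCODE M1 (NCBIM37, mm9), and promoter sequences from RefSeq (GRCm38.p6), matched exactly to mm9. The scripts were tested on simulated data. Alternatives were another pseudocount, filter, fold, scaling, correlation and choice of libraries.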

Additional observations from a re-analysis of the deposited data

How the results depend on the processing

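There were 77 alternatives to the counts and medians of the 10 genes and to the list of genes closest to their mean profile. Of these 77, 67 left the result within the set margins (a count within 1.5 times, a median within 0.5 on the log2 scale). The other 10 did not, and 0 reversed. The median difference between iPSCs and D0 was -6.19 with mESCs in place of iPSCs, and -4.05 with D3 in place of D0, chosen after seeing the data. At 4-fold, 5 genes were lower in D16S- and 3 in each of D3 and D6T+ than in D0, and 3 were lower in D9T- than in D9T+ and 0 in D12S+ than in D12S-. With a pseudocount of 0.1 the median difference between D6T- and D6T+ was -2.51. Of the 10 genes closest to the mean profile, 2 remained with Spearman's rho and 3 without iPSCs and mESCs. Scaling to the same total FPKM moved the median of all genes by 0.30 for D16S+, 0.19 for D16S-, 0.16 for iPSCs and D6T+ and 0.14 for D3, each against D0. The differences of Ctgf on day 9, Fn1 on day 12 and Eln between iPSCs and mESCs, all close to 0, changed sign with the scaling. Of 65 alternatives to the background shares, 36 moved by more than 1.5 times, mainly with the fold, the filter and the pseudocount. No paired analysis was possible because each condition has 1 library and the labels carry no replicate numbers. Fractions were compared within a day, and the 4 days are not replicates of each other. FPKM keep no absolute depth, so levels under 1 FPKM have unknown counting error.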
